A study of Mus musculus with 17 samples.

Results

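The clustered protocadherins are the genes of the Pcdha, Pcdhb and Pcdhg families, which lie side by side on mouse chromosome 18. All GENCODE genes of mm10 whose symbol begins with Pcdha, Pcdhb or Pcdhg were taken, which gave 58 of the 53843 annotated genes considered. They comprised 14 alpha, 22 beta and 22 gamma genes, of which 57 are annotated as protein-coding, and 2 gene IDs shared the symbol Pcdha11. Open chromatin was examined from 50 kb before the first to 50 kb after the last gene, at chr18:36880184-37891873, a window of 1012 kb. Peaks of 17 ATAC-seq libraries were joined wherever they overlapped, and 77 of the 281189 joined regions lay in this window.

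ATAC-seq finds open chromatin as the places where a transposase inserts sequencing adapters. Nuclei were isolated from the nucleus accumbens, a reward region of the ventral striatum, and sorted for the neuronal protein NeuN, and each library pooled 3 C57BL/6 mice aged 52 to 54 days. Females in diestrus, females in proestrus and males were killed 1 h after an intraperitoneal dose of 10 mg/kg cocaine, or served as controls without cocaine. The paper describes these controls as a baseline and mentions no vehicle injection for them. Differences after cocaine therefore cannot be told apart from those of injection, handling and time. Every group had 3 libraries except cocaine-treated males, which had 2, so 8 cocaine and 9 control libraries were compared. The stage of diestrus cocaine library 2 was taken from its title because its stage label was not filled in.

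Clustered protocadherins are cell adhesion proteins that neurons use to recognise branches of their own cell. In the alpha and gamma clusters each gene contributes its own variable first exon, with its own promoter, and this is spliced to constant exons shared by the whole cluster, whereas each beta gene is a complete exon. The alternating genes (also called stochastic isoforms) are chosen differently from cell to cell, so that most neurons express only a few of them, while the C-type genes at the end of the alpha and gamma clusters are regulated separately and are used more widely. Promoter choice in alpha and beta depends on distant enhancers and on looping by CTCF and cohesin, and unused promoters are commonly methylated.

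Libraries held 75458 to 157005 peaks, and the window held 32 to 74 of them. Both male cocaine libraries were the lowest by either number, with 87707 and 75458 peaks in all and 34 and 32 in the window. Read depth was not used here, and a place without a peak may still hold reads. Promoter peaks of the neuronal markers were called in all 17 libraries for 4 of 5 genes (Gad1 in 16) and for 5 of 5 medium spiny neuron markers. No promoter peak was called for oligodendrocyte precursor and endothelial markers (0 of 4 genes), and 1 of 4 microglial markers had a peak in 4 libraries. Of the 4 astrocyte markers, 2 (Aqp4, Aldh1l1) had none, Slc1a3 had one in 2 libraries and Gfap in 16. Of the oligodendrocyte markers, Mbp was called in all 17 libraries, and Mog, Mag and Mobp were called in proestrus cocaine library 2 and in no other. The part of other cells in the calls of that library was not tested, and counts without it are given with the results. The marker counts hold for the outermost annotated 5′ end. At any annotated start the oligodendrocyte precursor markers Pdgfra and Cspg4 had a peak in 16 and 3 libraries, and Pecam1 (endothelial) in 7. The microglial markers P2ry12 and Csf1r had one in 8 and 2 libraries, Aqp4 and Aldh1l1 in 4 each, and Gad1 in all 17, and the counts of the other markers stayed the same.

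Peaks in the window gathered at the ends of the alpha and gamma clusters. They covered a median of 4.63% of the window, against 3.17% of chromosomes 1 to 19 and X. The 36.5 kb from 1 kb before Pcdhgc3, the first gamma C-type gene, to the last gamma constant exon were the densest stretch, with a median of 50.01% covered and 10 to 20 peaks in each library. The variable exons of the alternating gamma genes were covered to 3.68% and those of the alternating alpha genes to 0.125%. The 260.5 kb of the beta genes held no peak in any library. Of the 77 regions, 19 lay within 1 kb of the 5′ end of a clustered protocadherin gene, 9 near the 5′ end of another gene, and 49 farther than 1 kb from every annotated 5′ end.

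**Figure D1:**
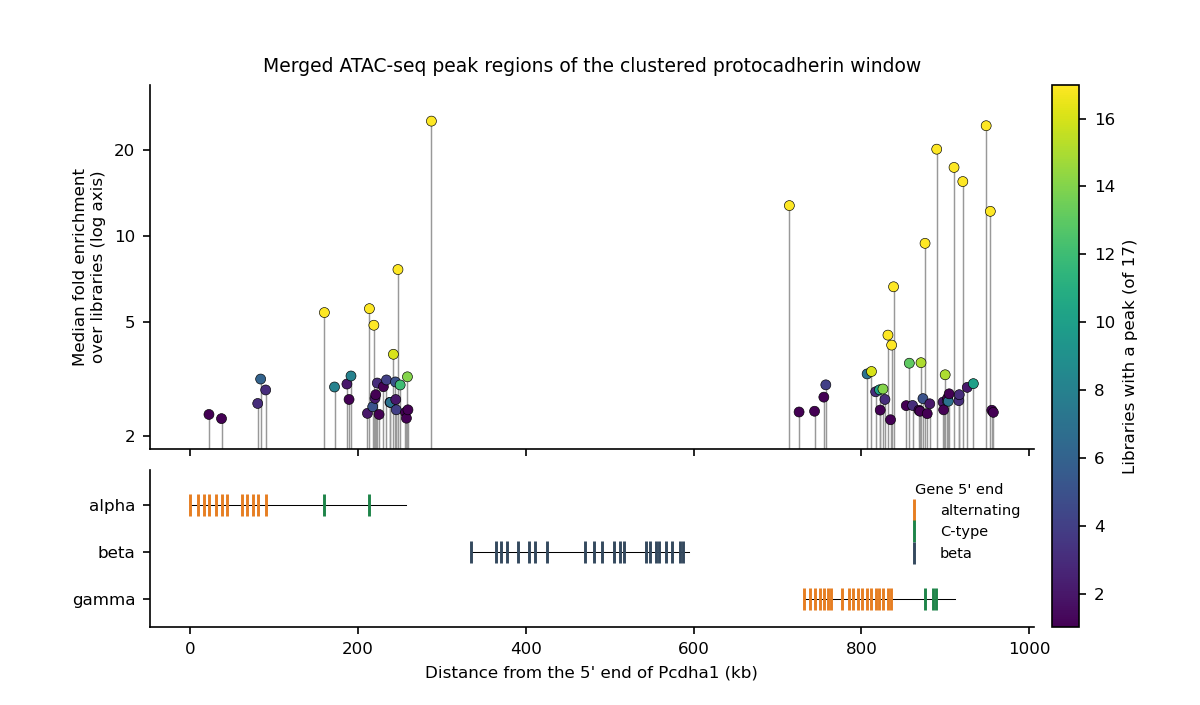
Each point is 1 of the 77 joined peak regions, at its distance in kb from the 5′ end of Pcdha1 (x axis), with its median fold enrichment over the libraries that called it (y axis, log scale) and the number of those libraries as colour; the lower panel marks the 5′ ends of the alpha, beta and gamma genes. The beta genes stand in a stretch of 424.6 kb without a point, between regions of fold enrichment 25.3 and 12.8.

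A region was kept for comparisons when at least 2 libraries of 1 group had called it, which left 46 of the 77 regions (59.7%; 52.4% of all regions). Of the 77, 24 were called in 1 library only (31.2%; 36.4% of all regions). Of the 46 kept regions 15 were called in all 17 libraries, a share of 32.6% against 25.0% of all 147420 kept regions. Fold enrichment, the summit pileup over the local background that the authors' peak caller gave, had a median of 9.44 over these 15 and of 3.01 over the 31 kept regions called in fewer libraries. The weakest peak of any library had a fold enrichment between 1.97 and 2.21, so the partly called regions were close to the limit of calling.

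A peak within 1 kb of the 5′ end was called in at least 1 library for 18 of the 58 clustered protocadherin genes (31.0%) and in all 17 libraries for 7 (12.1%). Over all 21755 protein-coding genes these shares were 64.4% and 51.9%. No library called a peak at 40 of the 58 promoters (69.0%, against 35.6% of all protein-coding genes), and single libraries called 7 to 14 of them, with a median of 11. In bulk nuclei, a promoter that is open in few cells and one that is weakly open in many cannot be told apart. Promoters called in some libraries only numbered 11 (18.97%, against 12.5% of protein-coding genes). At these, diestrus controls made 7 calls over 3 libraries, diestrus cocaine 14, proestrus controls 14 and proestrus cocaine 8. Male controls made 12 over 3 libraries and male cocaine 5 over 2. Of all 58 promoters, diestrus control libraries called 7, 10 and 11 and diestrus cocaine libraries 14, 12 and 9, the 14 in the library with the most peaks (157005). Proestrus control libraries called 12, 12 and 11 and proestrus cocaine libraries 9, 11 and 9, and males 12, 9 and 12 against 10 and 9. No matching group totals over all protein-coding genes are given, and these differences were not tested.

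**Figure D2:**
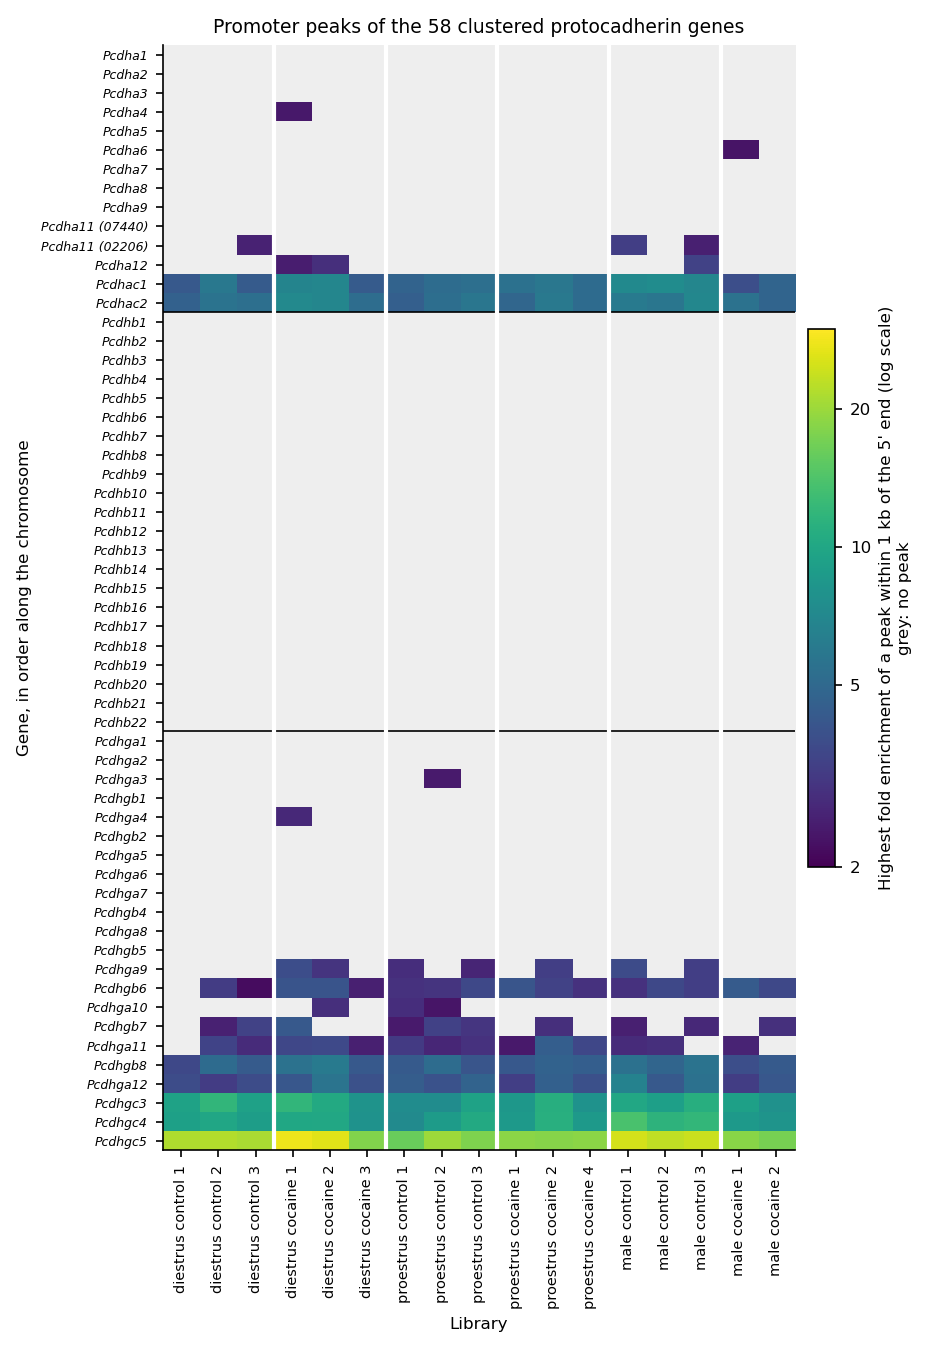
Rows are the 58 genes in chromosomal order and columns the 17 libraries; colour gives the highest fold enrichment of a peak within 1 kb of the 5′ end on a log scale, and grey means that no peak was called. The 5 C-type genes and Pcdhgb8 and Pcdhga12 are coloured in all 17 libraries, and all 22 beta rows are grey.

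All 5 C-type promoters were called in all 17 libraries. They did not share a strength. Pcdhgc5 (chr18:37819513-37841873, ENSMUSG00000102543) had the strongest promoter peak of the clusters, with a median fold enrichment of 20.2, at percentile 73.8 of the 11290 protein-coding promoters called in every library. Its values were 21.8, 22.0 and 21.2 in diestrus controls and 28.0, 26.7 and 17.9 after cocaine. In proestrus they were 16.2, 20.2 and 17.7 in controls and 18.7, 18.3 and 18.6 after cocaine. In males they were 25.1, 23.3 and 24.3 in controls and 18.5 and 17.2 after cocaine. The male cocaine values thus lay below the male controls, while the ranges overlapped in both female stages. These values are relative to each library's own background and were not normalized between libraries, so the comparison of groups rests on ranks. Among the 36847 regions called in every library, the region that holds this promoter differed by -1.44 points in males. It stood at percentiles 92.3, 92.3 and 92.9 in male controls and 91.1 and 91.0 after cocaine, and the female groups overlapped. Of all such regions, 22.1% were lower in every male cocaine than in every male control library.

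Pcdhgc3 (chr18:37806364-37841873, ENSMUSG00000102918) had a median fold enrichment of 9.44, and its lowest and highest libraries were at 7.43 and 11.9. Pcdhgc4 (chr18:37815079-37841873, ENSMUSG00000023036), a gamma C-type isoform needed for the survival of neurons during development, had a median of 9.29 and ranged from 7.29 to 13.8. They stood at percentiles 30.5 and 29.6 of protein-coding promoters. The peaks of Pcdhgc4 and Pcdhgc5 joined with that of the first gamma constant exon into a single region of 14117 bp, chr18:37812792-37826908.

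Both alpha C-type promoters were weaker. Pcdhac1 (chr18:37090013-37187657, ENSMUSG00000103255) had a median fold enrichment of 5.40 and Pcdhac2 (chr18:37143503-37187657, ENSMUSG00000102697), the isoform that serotonergic neurons use for spacing their axons, 5.58. They stood at percentiles 7.998 and 8.83 of protein-coding promoters, whose median fold enrichment was 13.2. For Pcdhac1 the values were 4.26, 5.92 and 4.36 in diestrus controls and 6.77, 6.92 and 4.36 after cocaine. They were 4.75, 5.22 and 5.40 in proestrus controls and 5.51, 5.88 and 5.13 after cocaine. In males they were 7.27, 7.44 and 6.92 in controls and 3.83 and 4.77 after cocaine, lower on this unnormalized scale, whereas the female groups overlapped. By rank the gap in males was narrow, with percentiles of 43.8, 50.04 and 44.3 in controls and 21.6 and 42.7 after cocaine. Of all regions called in every library, 22.1% were lower in every male cocaine than in every male control library. The summits of the Pcdhac1 and Pcdhgc3 peaks lay at a median of 10.0 and 48.0 bp from the annotated 5′ end.

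The 19 alternating gamma genes were called by position. None of the 12 genes from Pcdhga1 to Pcdhgb5 was called in more than 1 library, and only Pcdhga3 and Pcdhga4 were called at all, in 1 library each. Each of the 7 genes from Pcdhga9 to Pcdhga12, the last 28.6 kb of the array before the C-type genes, was called in 3 to 17 libraries. Of all combinations of gene and library this made 70.6% at the 7 and 0.9804% at the 12 (84 of 119 and 2 of 204). This division was chosen after the values were seen. Pcdhga1, Pcdhga2 and Pcdhgb1, the genes with the fewest calls by the naming rule, had no promoter peak in any library.

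Pcdhgb8 and Pcdhga12, the last of the alternating gamma genes, were called in all 17 libraries. They had median fold enrichments of 4.50 and 4.15, at percentiles 3.76 and 2.28 of protein-coding promoters. Pcdhgb8 is annotated as a polymorphic pseudogene. Of the others, Pcdhgb6 was called in 16 libraries (median fold enrichment 3.36), Pcdhga11 in 14 (2.92), Pcdhgb7 in 10 (2.90), Pcdhga9 in 7 (3.29) and Pcdhga10 in 3 (2.85). At Pcdhgb6 the missing library was diestrus control 1. At Pcdhga9 no diestrus control and no male cocaine library had a peak, against 2 of 3 libraries each of the diestrus cocaine, proestrus control and male control groups and 1 of 3 of the proestrus cocaine group. At Pcdhgb7 peaks were called in 7 of 9 control libraries, with fold enrichments of 2.57 and 3.42 (diestrus), 2.43, 3.36 and 3.03 (proestrus) and 2.55 and 2.74 (males). Of the cocaine libraries 3 of 8 had one, at 4.27 (diestrus), 2.89 (proestrus) and 2.91 (males). This difference did not pass the test of cocaine against control.

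The alternating alpha promoters were rarely called. Of the 12 genes, 8 had no peak in any library, among them Pcdha1, Pcdha2 and Pcdha3. Pcdha4 (fold enrichment 2.37 in diestrus cocaine library 1) and Pcdha6 (2.30 in male cocaine library 1) were called in 1 library each. Pcdha11 (ENSMUSG00000102206) was called in 3, at 2.59 in diestrus control library 3 and at 3.31 and 2.52 in male control libraries 1 and 3. Pcdha12 was called in 3, at 2.49 and 2.89 in diestrus cocaine libraries 1 and 2 and at 3.40 in male control library 3. No group had a peak at any of these promoters in all its libraries.

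None of the 22 beta promoters was called in any of the 17 libraries, from Pcdhb1 (chr18:37264938-37267525) through Pcdhb2 and Pcdhb3 to Pcdhb22 (chr18:37517871-37524479). The stretch without a peak in any library ran from chr18:37219205 to chr18:37643756, over 424.6 kb, and held all 22 beta genes and 27 genes in all. Of 281169 such gaps between neighbouring regions in the genome, those over unsequenced parts included, 131 were as long, and the median gap was 1.53 kb. Exact repeats of 100 bases elsewhere in the genome were rare at these promoters. Of all stretches of 100 bases within 1 kb of the 5′ end, a median of 100% occurred only at that place in the genome, with a lowest value of 97.1% among the beta genes. Over the other protein-coding genes of chromosome 18 the median was also 100%. The alternating alpha promoters had a median of 95.6% and a lowest value of 90.6%, and the lowest gamma value was 90.3%, at Pcdhgb8. Only exact matches were counted, and the cause of the missing beta peaks was not tested.

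The strongest region of the window lay outside the promoters of the family. The strongest region at such a promoter, which holds Pcdhgc5, had a median fold enrichment of 20.2. Enhancers of the alpha and beta genes have been described downstream of the alpha and the gamma clusters, but the files name none, and the regions below were not matched to them. Of the regions farther than 1 kb from every annotated 5′ end, the strongest was chr18:37216189-37219204, between the alpha and beta clusters and 28.5 kb past the end of the last alpha gene, in introns of the long gene models Gm37013, Gm37388 and Gm42416. Its fold enrichment was 25.3, 28.2 and 25.3 in diestrus controls, 28.4, 28.9 and 21.8 in diestrus cocaine, 20.3, 24.7 and 26.7 in proestrus controls, and 25.2, 28.3 and 24.4 in proestrus cocaine libraries. In males it was 29.3, 33.1 and 28.0 in controls and 24.9 and 23.1 after cocaine. Among the 36847 regions called in every library it stood between percentiles 93.8 and 96.8 in each of the 17 libraries, near the top of that scale, where percentiles have little room to move.

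The next was chr18:37875817-37881788, inside Diaph1, a formin gene that overlaps the end of the gamma cluster, 33.9 kb past the last gamma gene. Its fold enrichment was 24.4, 27.02 and 26.3 in diestrus controls and 29.1, 26.5 and 16.4 after cocaine. It was 19.96, 21.0 and 27.01 in proestrus controls and 23.3, 23.2 and 21.2 after cocaine, and 30.6, 24.6 and 27.6 in male controls against 19.3 and 17.1 after cocaine. By percentile within each library it was lower after cocaine in diestrus, at 95.7, 94.4 and 95.2 in controls and 94.2, 93.4 and 91.6 after cocaine. So it was in males, at 95.1, 93.2 and 94.7 against 91.9 and 90.9, while the proestrus groups overlapped. Of all regions called in every library, 12.4% were lower in this way in diestrus and 22.1% in males. These percentiles also lie near the top of the scale, with little room to move. A neighbour inside Diaph1, chr18:37882186-37885293, had a median of 12.2 and ranged from 9.76 to 14.2. The region chr18:37835079-37845891 spanned the third gamma constant exon and the end of Diaph1, with a median of 17.4 and a range of 12.4 to 21.3. The last of the 5 strongest was weaker, at 4.88, and lay in an alpha intron 4842 bp past the 5′ end of Pcdhac2 (chr18:37148345-37149860). All 5 were called in all 17 libraries.

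The types of promoter differed in base composition, as described here with no test. Within 1 kb of the 5′ end, the median GC content was 51.4% for the C-type genes and 51.3% for all protein-coding genes, but 41.7% for alternating alpha, 42.1% for beta and 45.4% for alternating gamma genes. CpG dinucleotides, the sites of DNA methylation, occurred at 0.641 of the number that base composition predicts in alternating alpha, at 0.501 in alternating gamma and at 0.334 in beta promoters, against 0.478 over all protein-coding genes. Alternating promoters with a peak in at least 1 library had a median GC content of 45.4% (13 genes) and those without 42.9% (18 genes), and their ratios of CpG were 0.568 and 0.583. Promoters with and without a peak overlapped in both measures.

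**Figure D3:**
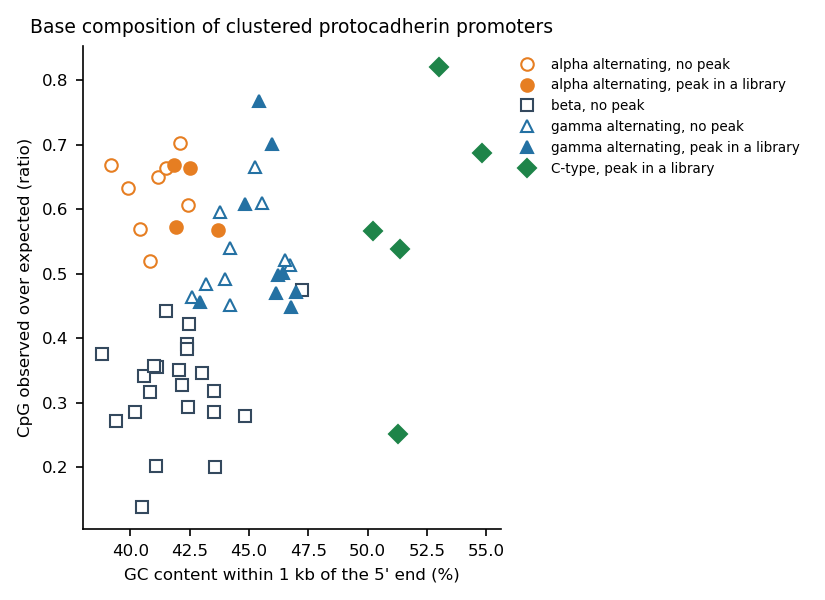
Each point is 1 clustered protocadherin promoter, placed by its GC content within 1 kb of the 5′ end in percent (x axis) and its CpG observed over expected ratio (y axis); filled points had a peak in at least 1 library. The beta promoters have the lowest median on the y axis (0.334) but overlap the other types, with the C-type promoter of Pcdhgc5 at 0.251, and the 5 C-type promoters lie above 50% GC.

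The core of the motif of the insulator protein CTCF was searched on both strands. It was found within 1 kb of the 5′ end of 7 of 12 alternating alpha genes (58.3%), 1 of 5 C-type genes (Pcdhac2), 1 of 19 alternating gamma genes (Pcdhga2) and 0 of 22 beta genes, against 13.4% of all protein-coding genes. Of the 7 alpha promoters with a match, Pcdha4, Pcdha6 and Pcdha12 had a peak in 1, 1 and 3 libraries and the other 4 had none. Within 150 bp of the strongest summit, 2 of the 46 kept regions held it (4.35%, against 5.27% of all kept regions), the region over the third gamma constant exon and the weaker one inside Diaph1. The letters TGANTCA (N for any base) of AP-1, the factor formed by Fos and Jun proteins, were found within 150 bp of the summit, on either strand, at 11 of the 46 (23.9%, against 18.4%), among them the region between alpha and beta and the one that holds Pcdhgc5. A match describes the letters and does not show binding, and a missing match says only that they are not in the window.

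Other members of the protocadherin family and genes that act on or with the clusters were mostly called. Of 12 non-clustered protocadherins, single genes with promoters of their own, 9 had a promoter peak in all 17 libraries, and Pcdh11x (15 libraries), Pcdh20 (15) and Pcdh12 (1) were the exceptions. Of 14 regulators of the clusters, such as Ctcf, the cohesin subunits Rad21 and Smc3 and the silencing protein Smchd1, 10 were called in all libraries. Rest was called in 16 and Dnmt3b in 10. Stag1 and Dnmt1 were called in none at the outermost annotated 5′ end, but in all 17 at another annotated start. All 9 intracellular partners, among them Ptk2 and Ptk2b, kinases that the alpha and gamma proteins bind and inhibit, were called in every library.

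To ask whether cocaine altered how often these regions were called, the 17 kept regions of the window called in 4 to 13 libraries were read out of a two-sided Fisher's exact test over 64304 regions. No region of the window passed an adjusted p of 0.05, nor did any in the genome (0%). With 8 against 9 libraries a Fisher's exact p cannot go below 4.11e-05. Over 64304 tests many regions must reach that value before any passes, so this 0 says little about single regions. At an unadjusted p under 0.05 the window had 0, while after cocaine 3.81% of all tested regions had gained calls and 9.23% had lost them. Where peaks had to cover 50% of a region the window had 4 of 24 (14.6% of all tested regions), with a smallest Fisher's exact p of 0.00905. It had 1 of 14 when peaks under a −log10 q of 5 were dropped (13.5%), 1 of 10 with the 75458 strongest peaks of each library (14.8%) and 1 of 17 without proestrus control library 3 (7.88%). The smallest p of the window was 0.0824 (Fisher's exact test, Benjamini-Hochberg adjusted p = 0.437), at chr18:37687546-37687857 in the variable exon of Pcdhga4, with peaks in 0 of 8 libraries after cocaine and in 4 of 9 controls. The promoter of Pcdhgb7, called in 3 of 8 and 7 of 9, had a Fisher's exact p of 0.153 and an adjusted p of 0.511. Of the 17 regions 10 had an adjusted p under 1, from 0.437 to 0.833.

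Groups of the same sex and stage were called separated by a region when every library of the first and no library of the second had a peak there. With 3 against 3 libraries no p below 0.1 is possible, and counts are given beside the share over all 147420 kept regions. In diestrus, 0 of the 46 kept regions were gained after cocaine (1.16% of all) and 1 was lost (1.26%), the region in Pcdhga4 named above, at 3.10, 4.47 and 2.91 in the 3 controls, in no cocaine library and in 1 other library, male control 1. In proestrus 0 were gained (2.45%) and 1 was lost (1.64%), chr18:37832963-37834388 over the second gamma constant exon, at 2.64, 2.55 and 3.03 in controls. In males 0 were gained (1.66%) and 2 were lost (16.8%). These were chr18:37786475-37787941, in introns of the gamma genes before Pcdhgc3, at 4.08, 3.58 and 4.39 in controls, and chr18:37828851-37831033, at the 5′ end of Gm29994 between the first and the second gamma constant exon, at 3.19, 3.31 and 2.85. The second was called in all 15 libraries other than the male cocaine ones. Both were lost where total peak numbers were lowest, and with every library cut to its 75458 strongest peaks 1 region was lost in males (9.35% of all kept regions).

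These counts changed when single libraries were left out, which makes a complete separation easier by construction, and the share over all kept regions is given beside each. In diestrus 4 regions were gained without cocaine library 3 (2.52% of all), 2 were lost without control library 2 (2.94%) and 5 were lost without cocaine library 1 (7.33%). In proestrus 3 were lost without control library 3 (3.00%) and 2 without cocaine library 2 (2.51%). In males 7 were lost without control library 2 (24.7%), 4 without control library 3 (20.6%) and 4 without cocaine library 1 (22.5%).

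For the sexes, 17 regions of the window were tested, and 0 passed an adjusted p of 0.05, as in the genome (0%). At an unadjusted p under 0.05, 2 of the 17 were called less often in males, against 4.42% of all tested regions, and 0 more often (1.62%). Without any 1 of the 5 male libraries there were 0 (2.81% to 6.77% of all tested regions in either direction), with a smallest Fisher's exact p of 0.0769. Without any 1 female library there were 1 to 3 (5.17% to 6.09%). The 2 regions found with all libraries lay in introns of the alpha cluster. The region chr18:37101913-37102481, 11900 bp past the 5′ end of Pcdhac1, was called in 0 of 5 male and 8 of 12 female libraries (Fisher's exact p = 0.0294, adjusted p = 0.493). Its fold enrichment was 2.84 and 3.57 in diestrus controls, 3.09 in diestrus cocaine, 2.53 and 2.27 in proestrus controls and 2.60, 3.10 and 3.56 in proestrus cocaine libraries. The region chr18:37168406-37169381, between the second and the third alpha constant exon, was called in 0 of 5 male and 7 of 12 female libraries (Fisher's exact p = 0.0441, adjusted p = 0.493). Between diestrus and proestrus, 0 of 12 tested regions passed (0% of 41660), the smallest Fisher's exact p was 0.0606, and the smallest adjusted p of any region in the genome was 0.735. At an unadjusted p under 0.05 the window had 0, against 0.422% more often and 0.245% less often in diestrus. Without diestrus cocaine library 2 or 3 it had 1 (7.35% and 7.83% of all tested regions).

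Among control groups, no region of the window was called in every male and in no diestrus (9.05% of all kept regions) or no proestrus library (10.5%). In the converse direction 2 separated diestrus from male controls (3.02%), and 1 separated proestrus from male controls (1.42%). The first were chr18:37163881-37164400, between the second and the third alpha constant exon, at 3.61, 2.57 and 3.42 in diestrus controls, and chr18:37802985-37803907, 2457 bp before Pcdhgc3, at 2.84, 2.23 and 2.70. The proestrus region was chr18:37168406-37169381, at 2.53, 2.90 and 2.56. Diestrus and proestrus controls were separated by 2 regions called in diestrus (3.96%), the alpha intron region chr18:37163881-37164400 and the region in Pcdhga4, and by 0 in the other direction (0.792%). The total of 5 became 8 to 10 without diestrus control library 2 (8), proestrus control library 3 (9) or male control library 1, 2 or 3 (8, 10 and 10). Per 100 kept regions of the genome such separations numbered 28.7 with all libraries, and 34.2 to 38.5 without any 1 control library.

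After cocaine, 2 regions were called in every diestrus and in no male library (5.14%), both named above as lost in males, and 2 in every proestrus and in no male library (6.24%), the region at Gm29994 and the one past Pcdhac1. In the converse direction there were 0 against diestrus (1.64%) and 0 against proestrus (1.32%), and the stages were separated by 0 regions in either direction (0.245% and 0.517%). The total of 4 became 8, 15, 8 and 9 without diestrus cocaine library 2, diestrus cocaine library 3, proestrus cocaine library 2 and male cocaine library 1. Per 100 kept regions of the genome there were 15.1 with all libraries, and 17.7 to 25.1 without any 1 cocaine library. None of the 8 regions that separated any pair of groups lay within 1 kb of a clustered protocadherin 5′ end, and their median fold enrichments were 2.62 to 3.59.

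The window held the fewest peaks in the smallest libraries. Diestrus controls had 50, 60 and 66 peaks in the window and diestrus cocaine libraries 74, 49 and 47. Proestrus controls had 55, 59 and 63 and proestrus cocaine libraries 48, 54 and 51, and male controls had 58, 42 and 52 against 34 and 32 after cocaine. Per 10000 peaks of the library, the window of diestrus controls held 4.24 ± 0.322 and that of diestrus cocaine libraries 4.60 ± 0.191 (mean ± SD, n = 3 each). In proestrus this was 4.66 ± 0.205 for controls and 4.07 ± 0.408 for cocaine (n = 3 each), and in males 3.49 ± 0.374 (n = 3) for controls and 4.06 ± 0.258 (n = 2) for cocaine. In number the male cocaine libraries were the lowest of all. Per 10000 peaks they stood at 3.88 and 4.24, the lower of them level with the highest male control (3.87).

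**Figure D4:**
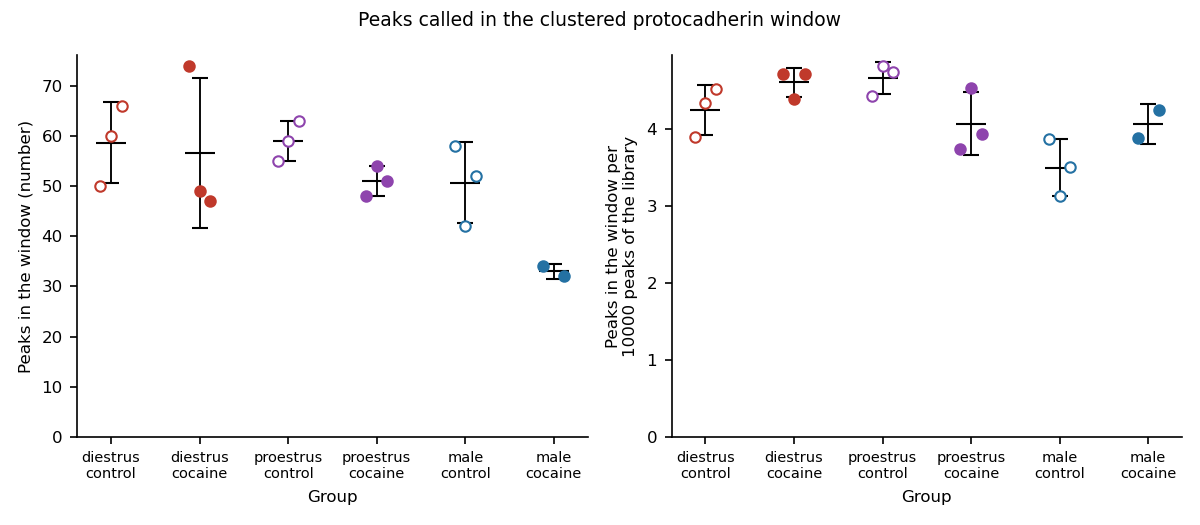
Points are libraries (open, control; filled, cocaine), and bars show the mean and SD of each group (n = 3, or 2 for male cocaine); the left panel gives the number of peaks in the window and the right panel the number per 10000 peaks of the library. The male cocaine libraries are lowest on the left, at 34 and 32, and reach 3.88 and 4.24 on the right, where male controls lie at 3.12 to 3.87.

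Strength was compared as the percentile of a region's highest fold enrichment among the 36847 regions called in all libraries, within each library. Of the 15 such regions of the window, 3 in diestrus were higher in every cocaine than in every control library (13.4% of all) and 2 lower (12.4%). In proestrus 0 were higher (13.8%) and 1 was lower (14.1%), and in males 4 were higher (24.4%) and 3 lower (22.1%). The region that holds Pcdhac2 was higher after cocaine in diestrus, at percentiles 24.5, 36.2 and 33.4 in controls and 42.1, 46.2 and 48.4 after cocaine, while in proestrus and in males the groups overlapped. The region at the promoter of Taf7, a general transcription factor gene between the beta and gamma clusters, was higher after cocaine in diestrus (75.4, 71.3 and 72.0 against 77.8, 84.3 and 87.1) and in males (75.0, 77.7 and 77.4 against 85.1 and 86.9). In proestrus it was at 79.4, 75.5 and 77.1 in controls and 78.9, 88.3 and 70.3 after cocaine, which overlapped. The region that holds Pcdhac1 was lower after cocaine in males, at 21.6 and 42.7 against 43.8, 50.04 and 44.3. The 2 regions lower after cocaine in diestrus were the stronger region inside Diaph1, also lower in males, and the region over the third gamma constant exon. The latter was at 90.7, 89.9 and 92.3 in diestrus controls and 86.7, 85.4 and 85.7 after cocaine, and its groups overlapped in proestrus and in males.

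With all libraries, 5 regions did not overlap in diestrus (25.8% of all regions called in every library), 1 in proestrus (28.0%) and 7 in males (46.4%). Without diestrus control library 2 there were 9 in diestrus (35.0% of all), and without male cocaine library 2 there were 12 in males (66.6%). In proestrus there were 2 to 4 without any 1 of the 6 libraries (35.2% to 50.5%). Groups with fewer libraries overlap less often by construction, and the shares over all regions rose as well.

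**Figure D5:**
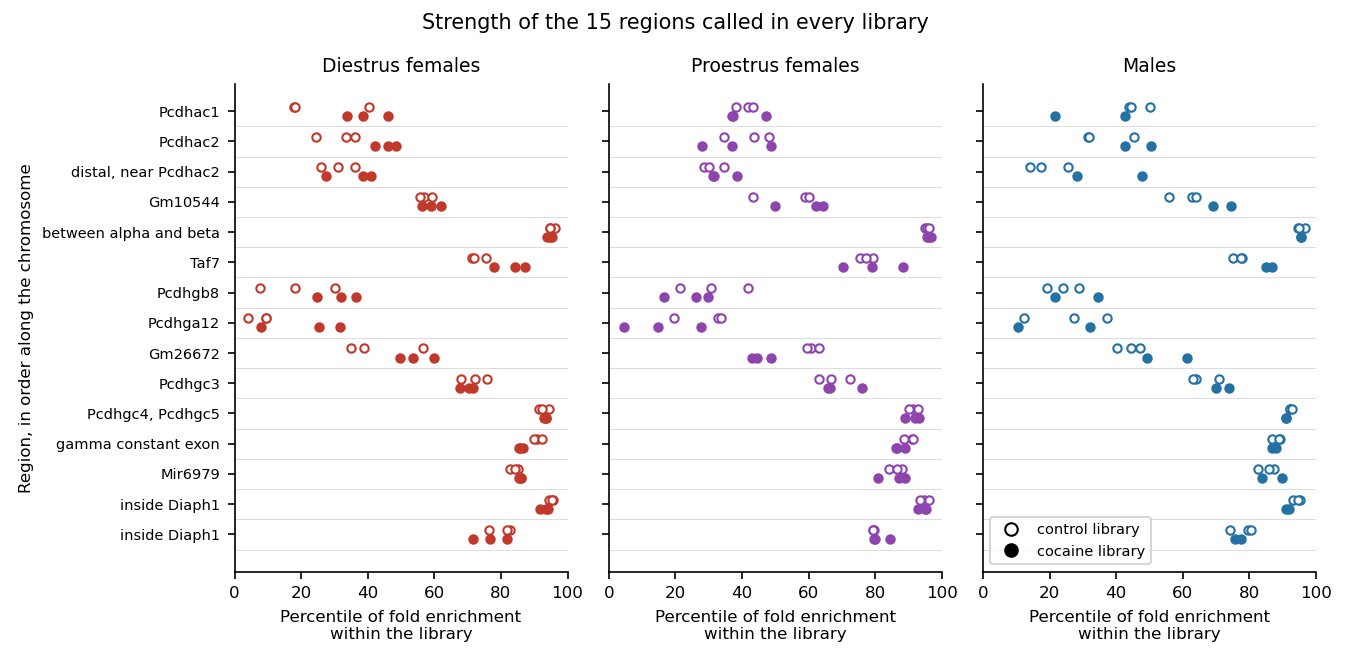
Each row is 1 of the 15 regions called in every library, named by the gene whose 5′ end it holds or by its place; points give the percentile of its fold enrichment within each library (x axis, 0 to 100) for control (open) and cocaine (filled) libraries of each sex and stage. The region between alpha and beta lies between 93.8 and 96.8, and the promoters of Pcdhgb8 and Pcdhga12 lie between 7.49 and 41.8 and between 3.99 and 37.3; spreads are not comparable between rows, since percentiles near 100 have little room to move.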

How the data were processed

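ATAC-seq peak lists of 17 libraries were analysed. The authors trimmed adapters, used BWA-MEM for alignment to mm10, and ran the peak caller MACS2 on every library by itself. Versions and options are not given in the sources used here. Each deposited peak carried a score (not used here), a fold enrichment (ratio of summit to background) and p and q as −log10, all deposited by the authors as computed within a library. The study itself tested read counts with DESeq2, which was not run here because the files are peak lists. The lowest −log10 q of a library was 1.31 to 1.64.

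Peaks on chromosomes 1 to 19 and X were joined over libraries by an overlap of 1 bp (Python 3.11.15, pandas 2.3.3, scipy 1.17.1). Genes came from GENCODE vM21 and sequence from GRCm38, the build of the files; coordinates count from 1. Blacklisted regions were not removed. Groups came from the titles, and at most 0.0728% of peaks were identical in any 2 libraries. Kept regions called in 4 to 13 of 17 libraries (4 to 8 of 12 for the stages) were compared by Fisher's exact test, adjusted over all of them (Benjamini-Hochberg). The test was run on simulated calls with almost complete separations, which does not show how it fares with smaller changes. Libraries pooled separate animals, and a missing call limits what can be seen at the depth of a library. The paper reports read numbers of the libraries, which were not used here. Within groups, separations and strengths are counts with no test.

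The genes named were the C-type genes, the 3 genes of each cluster with the most and the 3 with the fewest calls, regions that separated groups, the 5 strongest regions away from 5′ ends, and lists of related genes and cell markers. From the list of regulators, 1 gene is not reported here. Genes and regions named beyond these, such as the other alternating gamma genes with a peak and Taf7, were chosen after their values were seen. Members and lists were chosen with earlier results of these data known. Alternatives were other thresholds, overlaps and promoter windows, stratified and paired tests, and leaving out each library.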

Additional observations from a re-analysis of the deposited data

Results flagged for a closer look

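The region at the 5′ end of Gm26672 (chr18:37767579-37769274), which also overlaps the variable exon of Pcdhga12, changed rank in opposite directions. In proestrus its percentile of fold enrichment was 60.6, 63.2 and 59.5 in controls and 42.9, 48.6 and 44.5 after cocaine, a difference of -15.8 points. In males it was 47.3, 40.3 and 44.3 in controls and 61.2 and 49.2 after cocaine, a difference of 11.3 points. Every cocaine library lay below every control in proestrus and above every control in males, and the difference between the groups was not tested. In diestrus the groups overlapped, at 35.0, 56.5 and 38.9 in controls and 49.6, 53.7 and 60.0 after cocaine. Opposite separations of this kind in at least 1 pair of the sex and stage groups occurred in 4516 of the 36847 regions called in all libraries (12.3%), and in 1 of the 15 of the window. On the scale of fold enrichment the male values overlapped, at 7.65, 6.47 and 6.92 in controls and 6.78 and 5.23 after cocaine.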

How the results depend on the processing

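In the 3 Fisher's exact tests 0 regions of the window passed an adjusted p of 0.05 under every alternative. With all libraries the smallest Fisher's exact p of the genome was 4.11e-05 for cocaine, 0.000162 for the sexes and 0.00216 for the stages. These are the lowest values that such numbers of libraries allow. Many regions must reach them before any passes, so these results do not bear on stability. The smallest adjusted p of the genome lay between 0.0651 and 1 over the alternatives. In their peak calls, pairs of libraries with the same number showed little shared deviation from their groups (correlations of -0.0871 to 0.0363 over 7 pairs). Whether equal numbers mark libraries processed together was not tested otherwise. The exact test with the replicate block of those pairs called 0 regions of the window, but with 7 pairs its p cannot go below 0.0156, so this 0 does not bear on stability. When peaks under a −log10 q of 5 were dropped, and likewise when every library was cut to its 75458 strongest peaks, the regions lost after cocaine became 0 in diestrus, 0 in proestrus and 1 in males, and 0 regions separated control groups and 0 separated cocaine groups. Where peaks had to cover 50% of a region, 2 were gained in diestrus, 0 were lost in proestrus and 8 separated control groups. The cause was not tested. Leaving out 1 library gave 0 to 4 regions gained and 1 to 5 lost in diestrus, 1 to 3 lost in proestrus, 3 to 7 lost in males, 5 to 10 separating control groups and 4 to 15 separating cocaine groups. Over all kept regions these shares were 1.56% to 2.57% gained and 1.396% to 7.33% lost in diestrus, 2.27% to 3.89% lost in proestrus and 19.03% to 24.7% lost in males. Fewer libraries make a complete separation easier by construction. Regions whose strengths did not overlap then numbered 5 to 9 in diestrus (30.6% to 55.1% of all), 2 to 4 in proestrus (35.2% to 50.5%) and 8 to 12 in males (53.4% to 66.6%). Of the promoters, 7 to 8 genes were called in all libraries, 39 to 47 in none, and all 22 beta promoters in none under every alternative, also without both male cocaine libraries, which was added after seeing the data (7, 41 and 22).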
